A study of Mus musculus with 4 samples.

Results

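Classical monocytes and cells derived from them were picked out of single-cell RNA libraries of mouse liver leukocytes by the transcripts they carry. A barcode, which stands for a single cell, was a member when at least 3 of the 7 monocyte genes Chil3, F13a1, Fn1, Ccr2, Ms4a4c, Ly6c2 and Vcan had at least 1 unique molecular identifier (UMI, a counted RNA molecule). It also had to lack any UMI of Siglech, Cd79a, Cd3e and Retnlg, which mark plasmacytoid dendritic cells, B cells, T cells and neutrophils, and to show fewer than 3 of the 6 Kupffer cell genes Clec4f, Timd4, Vsig4, Cd5l, Marco and Folr2. Members were thus chosen by measured transcripts of these genes. The rule found 180 members among 15020 barcodes that passed quality limits, out of 15383 in all.

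The libraries came from CD45+ cells of the livers of adult WT C57BL/6 mice, and no other genotype or agent was used. Exercise mice (2 libraries) ran on a motorized treadmill at 12.5 m/min for 60 min a day on 5 days a week over 4 weeks, and sedentary mice (2 libraries) were kept on a treadmill that stood still for the same periods. The labels give serum alanine aminotransferase (a liver injury enzyme) as 26 and 59 U/L for exercise replicates 1 and 2, against 33 and 56 U/L for the sedentary pair. The series title is about exercise before surgery and the inflammatory training and metabolism of Kupffer cells, which are resident liver macrophages. Whether replicates came from separate or pooled animals is not in the labels, so p-values measure the spread between these samples, which may be technical.

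Classical monocytes leave the bone marrow under the control of the chemokine receptor Ccr2 and circulate as Ly6C-high cells. In tissues they can become macrophages or antigen-presenting cells with MHC class II, and in blood they can become patrolling monocytes under the transcription factor Nr4a1. In the liver they are known for replacing lost Kupffer cells and for entering injured tissue.

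Barcodes numbered 2991 and 4265 in the exercise libraries and 4165 and 3962 in the sedentary libraries, with 10050976 to 14849778 UMIs each. Pairs of libraries shared 11 to 31 barcode sequences, and no member barcode was a member in another library. Members had more UMIs than the average kept barcode. Their median was 4492.5 and 4660 UMIs in exercise replicates 1 and 2, against 3469.5 and 3911 UMIs in sedentary replicates 1 and 2, while all kept barcodes had medians of 2065.5 to 2899 UMIs. The rule needs detected genes, which deeper barcodes show more easily, so the depth of members is partly set by the rule. Summed over members, the libraries held 79349 and 325222 UMIs after exercise and 190502 and 185113 UMIs in sedentary mice, so exercise replicate 1 is the shallowest. Levels below are scaled to 1e+06 UMIs of these sums (CPM).

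The genes of the rule describe the members and support nothing. Ccr2, the receptor that draws monocytes towards chemokine Ccl2, was detected in 92.2% of members, and Ly6c2, which encodes the Ly6C surface antigen, in 87.2%. Ms4a4c, a membrane protein gene, was detected in 77.2% and the fibronectin gene Fn1 in 61.7%. The coagulation factor XIII gene F13a1 was detected in 57.2%, the chitinase-like gene Chil3 in 52.2% and the versican gene Vcan in 13.9%. Detection differed between libraries most for Fn1, with 55.6% and 60.0% of members after exercise, against 83.3% and 39.5% in sedentary mice. Of the 180 members, 49 showed 3 of the 7 genes, 53 showed 4, 38 showed 5, 34 showed 6 and 6 showed all 7.

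The threshold of the rule cut through a gradient. The 49 members with exactly 3 monocyte genes had 3760 CPM of Plac8, a monocyte gene that the rule did not use, and 210 barcodes just outside with 2 genes had 1289 CPM. Cd74, the invariant chain of MHC class II, stood at 23637 CPM just inside and 24214 CPM just outside. At the Kupffer limit, 56 members showed 2 Kupffer genes and 17 barcodes were left out with 3.

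Transcripts of Kupffer cells were also seen in members. Free RNA can add to any cell, and its part here was not tested. After each cell was thinned to 1000 UMIs, Clec4f, a Kupffer lectin, was detected in 11.1% and 12.3% of members after exercise, against 9.26% and 2.33% in sedentary mice. In B cells, which lack the gene, the shares were 14.4% and 16.0% after exercise and 10.7% and 11.2% in sedentary mice, and in Kupffer cells 93.7% to 95.3%. Clec4f is 1 of the Kupffer genes that limit membership, so its share in members is partly set by the rule and is given as a description. Before thinning the shares of members were 44.4% and 38.5% after exercise and 18.5% and 34.9% in sedentary mice, with median depths of 3469.5 to 4660 UMIs in members and 1404 to 1749.5 UMIs in B cells. The level of Clec4f averaged 103 CPM in members, 133 CPM in B cells and 3736 CPM in Kupffer cells. C1qb, a complement gene of macrophages that the rule did not use, was detected after thinning in 22.2% and 27.7% of members after exercise and 13% and 32.6% in sedentary mice, above B cells in 3 of 4 libraries (14.4%, 21.0%, 14.3% and 16.8% in the same order).

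Markers of other cell types were mostly low in members. All 4 basophil markers were at 0 in every library, as were 4 of 9 neutrophil markers (Cxcr2, Ngp, Camp and Retnlg, which the rule excludes). All 9 neutrophil markers summed to 75.6 and 105 CPM after exercise and 115 and 124 CPM in sedentary mice. The 5 markers of liver sinusoidal endothelial cells (LSECs) summed to 265 and 483 CPM after exercise and 373 and 64.8 CPM in sedentary mice. At least 2 LSEC markers were seen in 16 members, at least 2 markers of conventional dendritic cells type 2 (cDC2) in 14 and at least 2 of type 1 in 2, which together made 30 members. Some genes of the rule were also detected in cDC2 outside it, before thinning. Ccr2 was in 8.33% and 60% of them after exercise and 54.2% and 53.3% in sedentary mice. Ms4a4c was in 66.7% and 60%, and 54.2% and 46.7%, whereas Chil3 and Fn1 were in 0% throughout. In T cells Ly6c2 was in 29.4% to 37.9% and Ccr2 in 33.5% to 45.9%. How many members were dendritic cells was not tested. Of the 180 members, 3 were marked as doublets by comparison with simulated doublets, and 2 showed at least 3 of 12 cell cycle genes. The exercise, Kupffer and patrolling comparisons and the shares of members and of MHC class II-high members below were recomputed without the 30 members. The interaction with Kupffer cells and the gene levels of the MHC class II split were not.

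Members were 18 of 2917 and 65 of 4221 kept barcodes in exercise replicates 1 and 2, against 54 of 4026 and 43 of 3856 in sedentary replicates 1 and 2. Their share was 0.617% (exact binomial 95% interval 0.366–0.973) and 1.54% (1.19–1.96) in exercise mice, and 1.34% (1.01–1.75) and 1.12% (0.808–1.5) in sedentary mice. The exercise libraries held the lowest and the highest share, so the groups overlapped. The mean was 1.08% ± 0.653 after exercise and 1.23% ± 0.160 in sedentary mice (SD, n = 2 each; exact two-sided permutation test, p = 1). With 2 libraries against 2 this exact test cannot give a p below 0.333. The intervals cover counting error only, and fewer monocytes cannot be told apart from more of another cell type in the same library.

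**Figure D1:**
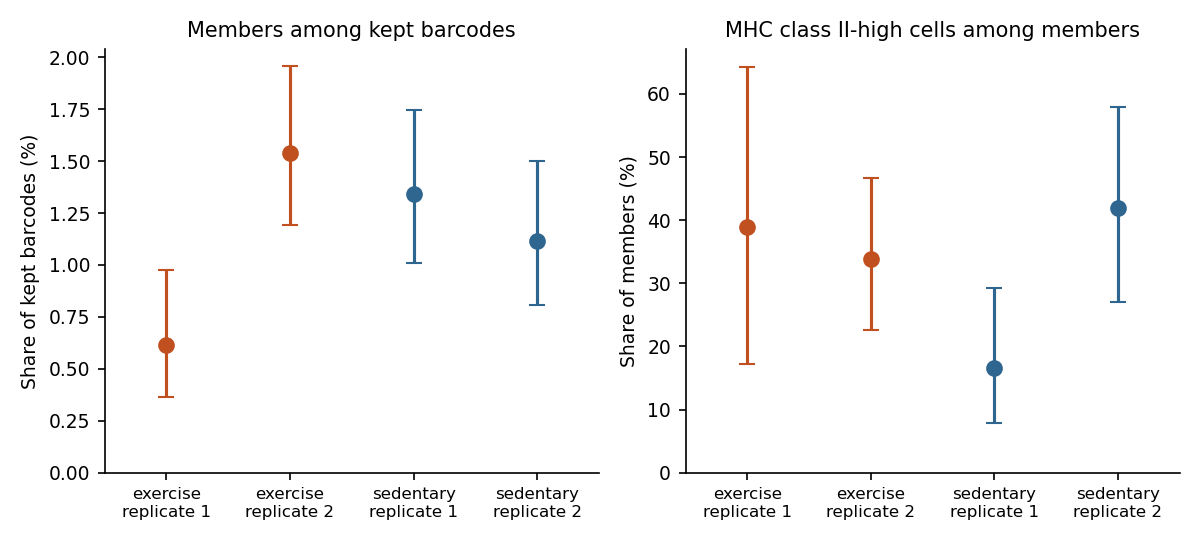
Share of members among kept barcodes (left, %) and share of MHC class II-high cells among members (right, %) in each library, with exact binomial 95% intervals as bars. Exercise replicate 1 has the lowest share of members (0.617%) and sedentary replicate 1 the lowest share of MHC class II-high members (16.7%).

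Set against Kupffer cells, members had higher levels of blood monocyte genes and lower levels of resident macrophage genes. The calcium-binding genes S100a4 and S100a6, the lysozyme gene Lyz2 and Plac8 rose, and complement, apolipoprotein E and scavenger receptor genes fell. Kupffer cells were 6055 barcodes with at least 4 of the 6 Kupffer genes, fewer than 3 monocyte genes and no UMI of the 4 excluded genes. Counts were summed per library and cell type and compared with edgeR's quasi-likelihood test with the library as a block, leaving out the genes of both rules. edgeR called 1243 of 8699 genes higher in members (14.3%) and 1629 lower (18.7%) at a Benjamini-Hochberg adjusted p of 0.05, with a median log2 difference of −0.16 over all genes. DESeq2 called 923 higher and 1151 lower. Members and Kupffer cells were told apart by their transcripts in the first place, so a large number of differences is no finding by itself. edgeR drew the spread from all genes together here, so its p-values do not measure the spread of a single gene and are not printed. The standard errors (SE) given for this comparison rest on the same shared spread.

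S100a6 stood at 2231 and 1937 CPM in members after exercise and 2415 and 1783 CPM in sedentary members, against 17.8 to 32.8 CPM in the Kupffer cells of the 4 libraries. The ranges were far apart, and the log2 difference was 6.46 (SE 0.15; gene ENSMUSG00000001025, GRCm38 chromosome 3, 90612882 to 90624181). Plac8 stood at 4735 to 6747 CPM in members and 324 to 540 CPM in Kupffer cells, with a log2 difference of 3.66 (SE 0.13). Lyz2, made by monocytes, neutrophils and macrophages, averaged 22598 CPM ± 2477 in members and 4521 CPM ± 327 in Kupffer cells (SD, n = 4 libraries each), a log2 difference of 2.29. It was detected in all 180 members.

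Of 16 further genes of classical monocytes, 15 were tested, 14 rose and 1 fell, with a median log2 difference of 3.66. Haptoglobin Hp, which binds free hemoglobin, averaged 473 CPM in members and 22.5 CPM in Kupffer cells (log2 difference 4.78), and the interferon-inducible membrane protein genes Ifitm6 and Ifitm3 had log2 differences of 3.13 and 1.27. The exception was Cd14, the co-receptor for bacterial endotoxin, with 74.7 CPM in members and 128 CPM in Kupffer cells (−0.73).

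Among genes at 100 CPM or more that rose, Saa3, an acute-phase serum amyloid, had the largest log2 difference at 8.87, but it was seen in 9 members and 54.5% of its UMIs came from 1 cell. Gpr141, an orphan receptor gene, averaged 130 CPM in members and 0.427 CPM in Kupffer cells (7.87). Ly6i, of the Ly6 family, averaged 325 and 1.53 CPM (7.62), and Clec4e, the lectin Mincle that recognizes fungal and mycobacterial glycolipids, 154 and 0.944 CPM (7.05). Tppp3 (6.77), Emb (embigin, a partner of lactate transporters, 6.63), the scaffold gene Ahnak (5.89) and the dendritic cell lectin Cd209a (6.06) completed the named genes. Each was higher in members in all 4 libraries. Cd209a is also a cDC2 marker, and it was not tested against Kupffer cells without the members that carry LSEC or dendritic cell markers.

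Genes of tissue macrophages ran the other way. Of 20 tested genes of macrophage differentiation, 15 fell and 4 rose, with a median log2 difference of −2.63. The complement gene C1qb had 391 and 882 CPM in members after exercise and 226 and 513 CPM in sedentary members, against 4437 to 5561 CPM in Kupffer cells (log2 difference −3.39). Every library of members lay far below every library of Kupffer cells. Apoe averaged 3868 CPM in members and 17358 CPM in Kupffer cells (−2.27), and the lysosomal protease Ctsb 951 and 5696 CPM (−2.69). Mertk, a receptor for dying cells, averaged 3.66 and 166 CPM (−5.00). The 4 that rose were Lgals3 (galectin-3, 1.80), Cd9 (1.85), Cd63 (2.39) and Fabp5 (2.98). Of the Fabp5 UMIs, 43.8% came from 1 cell.

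The largest falls included terminal complement component C6, with 12.1 CPM in members and 686 CPM in Kupffer cells (−5.87), and Cd163, the receptor for haptoglobin-hemoglobin complexes, with 9.53 and 543 CPM (−5.71). The potassium channel gene Kcna2 and the formyl peptide receptor gene Fpr1 had no UMI in any member. Taking 3 counts over all members as the limit of detection (3.85 CPM), they were at least 34.8-fold and 34.5-fold lower in members than in Kupffer cells, where they summed to 134 and 133 CPM. The others were Ctla2b (−6.54), Tmem26 (−6.50), Pcolce2 (−6.01), Pmp22 (−5.56) and the hemoglobin genes Hba-a2 (−6.89) and Hba-a1 (−6.26). Hba-a1 averaged 196 CPM ± 214 in Kupffer cells (SD, n = 4 libraries), so this red blood cell transcript was uneven between libraries.

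Regulators, receptors and metabolic genes were compared by lists. Among 18 myeloid transcription factors, 6 rose and 6 fell. Those that fell included the macrophage factor Maf (−3.03), the liver X receptor gene Nr1h3 (−3.24), Spic (−3.14), Id3 (−2.20) and Id2 (−1.08), and those that rose were Runx3 (4.59), Irf5 (1.32), Klf4 (1.05), Cebpb (0.71), Runx1 (0.65) and Spi1 (0.54). Among 14 adhesion and chemokine receptors, 9 rose, such as the fractalkine receptor Cx3cr1 (4.42), Ccr1 (5.86) and the P-selectin ligand Selplg (1.22), and 5 fell, such as the integrin Itgal (−2.01) and Cd44 (−1.16). The chemokine gene Ccl9 rose by 5.36 and averaged 741 CPM in members and 17.4 CPM in Kupffer cells. Of 15 glycolysis genes, 12 rose and 1 fell, with a median of 1.25. Eno1, which encodes the glycolytic enzyme enolase, averaged 564 CPM ± 131 in members and 86.9 CPM ± 18.8 in Kupffer cells (SD, n = 4 libraries each). Among 12 cell cycle genes, 0 rose and 4 fell.

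These calls were fewer when members with any Kupffer gene were left out, with 296 genes called higher and 892 lower by edgeR over 50 members. MHC class II genes depended on that choice. Cd74 rose by 0.82 in members, and H2-Ab1, H2-Aa and H2-Eb1, the chains of the class II molecules, by 0.47, 0.41 and 0.45. H2-Ab1, H2-Aa and H2-Eb1 had log2 differences of −0.26, −0.23 and −0.26 in the 50 members without a Kupffer gene, and of −0.053, −0.050 and −0.044 without the 30 members with LSEC or dendritic cell markers.

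**Figure D2:**
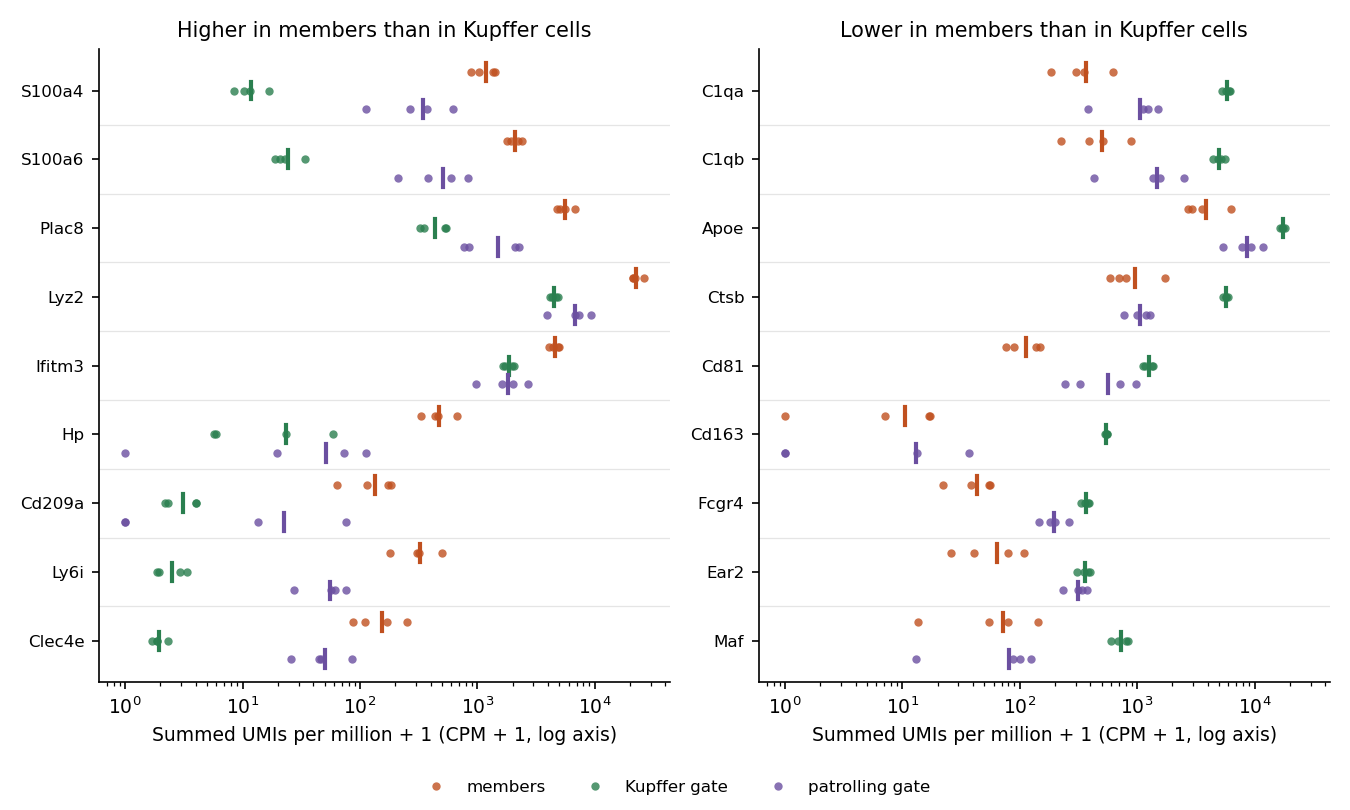
Summed UMIs as CPM plus 1 (log axis) for genes that rose (left) and fell (right) in members (orange, top) against Kupffer cells (green), with patrolling monocytes (purple, bottom) for comparison. Points are the 4 libraries and ticks their mean, and S100a6 in members stands at 1783 to 2415 CPM against 17.8 to 32.8 CPM in Kupffer cells.

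Patrolling monocytes are the nearest relatives of the members, so a second comparison asked what sets members apart from them. They were 118 barcodes outside the rule with at least 2 of Ace, Treml4, Adgre4, Eno3, Spn and Pglyrp1 and at least 1 UMI of Csf1r, and were not classed as cDC2. Each library held 27 to 35 of them. Both groups were chosen by their transcripts, so differences in classical and patrolling genes are partly set by that choice. edgeR's quasi-likelihood test with the library as a block called 125 of 1929 genes higher in members (6.48%) and 84 lower (4.35%), and DESeq2 called 58 higher and 39 lower. The edgeR count was 105 without exercise replicate 2 and 102 without sedentary replicate 1.

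Of 14 tested interferon-stimulated genes, 10 rose in members and 0 fell, with a median log2 difference of 1.60 against −0.0077 over all genes. The chemokine gene Cxcl10 had 920 and 194 CPM in members after exercise and 163 and 800 CPM in sedentary members, against 118 and 18.7 CPM in patrolling monocytes after exercise and 0 and 24.8 CPM in sedentary ones. Each library had more in members, although members varied widely, with exercise replicate 1 and sedentary replicate 2 high. The log2 difference was 3.41 (SE 0.35; edgeR adjusted p = 0.000143, range over the alternatives 1.23e-24 to 0.0177). Cxcl9, an interferon-gamma-induced chemokine gene, had 504 and 218 CPM in members after exercise and 142 and 400 CPM in sedentary members, against 0 to 36.0 CPM in patrolling monocytes (log2 difference 4.40, edgeR adjusted p = 0.000279, range 2.91e-23 to 0.00357). The guanylate-binding protein gene Gbp2 had 668 and 160 CPM in members after exercise and 268 and 486 CPM in sedentary members, against 12.4 to 59.9 CPM (3.65). Cxcl10 and Cxcl9 came from few cells, with a UMI in 26 and 30 of 180 members, and 1 cell held 18.7% and 15.6% of their UMIs. Isg15, a ubiquitin-like interferon effector, was seen in 61 members and rose by 2.32. Zbp1 (1.74), Ifi27l2a (1.72), Oasl2 (1.70), Ifi47 (1.92), Ifi204 (1.5) and Ifitm3 (1.27) rose as well, and Cxcl9 was not on the list.

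The DNA before the start of a pair of these genes is shown because the genes are textbook targets of the interferon-stimulated response element. Capitals mark each match to its core, taken as GAAA, any 2 bases and GAAA, searched on both strands of the 250 bases before each RefSeq start (GRCm38.p6), where matches may overlap. The Cxcl10 stretch is chr5:92349040-92349139 on the minus strand, with the match 213 to 204 bases before the start, and the Isg15 stretch is chr4:156200837-156200936 on the minus strand, with 3 overlapping matches from 78 to 57 bases before it. The core was found in 2.98% of 32851 such windows, and among the interferon-stimulated list in 9 of the 16 genes with an entry. A match is a description of the letters and not a binding site.
Cxcl10: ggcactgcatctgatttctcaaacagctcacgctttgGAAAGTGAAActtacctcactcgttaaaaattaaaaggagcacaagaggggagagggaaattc
Isg15: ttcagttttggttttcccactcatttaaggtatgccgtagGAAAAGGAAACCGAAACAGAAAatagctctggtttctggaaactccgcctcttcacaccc

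The classical monocyte list also set members apart from patrolling monocytes, with 12 of 14 tested genes higher, 0 lower and a median of 1.59. Lyz2 averaged 22598 CPM in members and 6840 CPM in patrolling monocytes (log2 difference 1.65), and S100a6 2091 and 505 CPM (2.05). Hp had 328 and 461 CPM in members after exercise and 667 and 438 CPM in sedentary members, against 0 to 112 CPM in patrolling monocytes (3.38, edgeR adjusted p = 0.000425, range 7.48e-26 to 0.0126). Every library of members was above every library of patrolling monocytes. Complement C3 (3.32), the protease inhibitor gene Slpi (3.14), Slfn1 (3.09), the glutathione transferase gene Mgst1 (2.79), the actin-capping gene Capg (2.72) and Ly6i (2.47) rose too.

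Genes of the patrolling state fell in members. Of 5 tested patrolling genes that the rule for those cells did not use, 4 fell and 0 rose. Fcgr4, a low-affinity IgG receptor, averaged 42.0 CPM in members and 196 CPM in patrolling monocytes (−2.28), the fatty acid receptor Cd36 14.2 and 126 CPM (−2.78), and Nr4a1 85.0 and 171 CPM (−1.16). The integrin Itgal fell by 1.35. Other genes with the largest falls were the eosinophil-type ribonuclease gene Ear2, with 63.0 and 313 CPM (−2.39), the chemokine gene Ccl4 (−2.48), the signalling brake Rgs1 (−2.50), the activating receptor gene Klrk1 (−2.52), Basp1 (−2.93), Rab7b (−2.33) and Cd24a (−2.22). The tetraspanin gene Cd81 also fell (−2.33), with 112 CPM in members, 565 CPM in patrolling monocytes and 1250 CPM in Kupffer cells. C1qb averaged 503, 1476 and 5003 CPM in the same order, so its mean level was lower in members than in both. Its detection did not follow the level in every library. After thinning it was seen in 25% and 45.7% of patrolling monocytes after exercise and 16% and 25% in sedentary mice. The shares of members given above were lower, except in sedentary replicate 2 with 32.6%. How the C1qb UMIs were spread over single patrolling monocytes was not tested. The part of Kupffer cell RNA in these falls was not tested.

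Members varied among themselves in MHC class II, the molecules that present antigen to helper T cells. The share of a cell's UMIs in H2-Aa, H2-Ab1, H2-Eb1 and Cd74 ran up to 12.7%, and 56 of the 180 members (31.1%) had at least 1%. This limit was chosen after the values were seen, so the split is a description without tests, and 25 members lay between 0.5% and 2%. The median share was 4.54% in MHC class II-high members and 0.109% in the other 124. MHC class II-low members had Cd74 at 1051 to 2115 CPM in the 4 libraries, near the 668 to 1530 CPM of T cells, which lack MHC class II in mice. MHC class II-high members had a median of 4936 UMIs and MHC class II-low members 3855.5 UMIs.

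MHC class II-high members were 7 of 18 (38.9%, exact binomial 95% interval 17.3 to 64.3) and 22 of 65 (33.8%, 22.6 to 46.6) after exercise, against 9 of 54 (16.7%, 7.92 to 29.3) and 18 of 43 (41.9%, 27 to 57.9) in sedentary mice. The exercise libraries lay between the sedentary ones. The mean was 36.4% ± 3.57 after exercise and 29.3% ± 17.8 in sedentary mice (SD, n = 2 each; exact two-sided permutation test, p = 1). The difference was 7.10 percentage points, −5.49 without sedentary replicate 1 and 19.7 without sedentary replicate 2.

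The class II genes that chose the MHC class II-high members came with others that the split did not use. H2-DMa and H2-DMb1, which load peptides onto class II molecules, averaged 1383 and 1149 CPM in MHC class II-high members and 372 and 128 CPM in MHC class II-low members, higher in all 4 libraries. The dendritic cell lectin Cd209a had 293 and 305 CPM in MHC class II-high members after exercise and 299 and 332 CPM in sedentary ones, against 0 and 74.7 CPM and 0 and 32.7 CPM in MHC class II-low members. The ranges did not overlap. Ly6i averaged 708 CPM ± 182 and 93.0 CPM ± 61.4, and the integrin gene Itgax, which encodes CD11c, 93.5 CPM ± 42.1 and 5.34 CPM ± 10.7 (SD, n = 4 libraries each). Among the MHC class II-high members, 12 of 56 showed at least 2 cDC2 markers, against 2 of 124 MHC class II-low members. Without the members that carry LSEC or dendritic cell markers, MHC class II-high cells made up 29.4% of members after exercise and 24.4% in sedentary mice. This left out only cells with at least 2 detected markers of a type. Whether dendritic cells with fewer detected markers remained was not tested. Members with LSEC or dendritic cell markers were 18 of the 56 MHC class II-high and 12 of the 124 MHC class II-low ones. The gene levels of the split include them and were not recomputed without them.

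Of 16 classical monocyte genes that the rule did not use, all with at least 20 CPM in members, 9 were lower in MHC class II-high members in all 4 libraries and 0 were higher in all 4. Of all 4763 genes at that level, 12.7% were lower and 6.21% higher in all 4. MHC class II-high members showed a median of 3 monocyte genes of the rule, its minimum, and MHC class II-low members 5. The split thus also parts members near the edge of the rule from others. The rule gene Chil3, whose level the choice of members affects, had 0 and 72.5 CPM in MHC class II-high members after exercise and 299 and 203 CPM in sedentary ones, against 473 and 987 CPM and 1251 and 425 CPM in MHC class II-low members. Each library had less in its MHC class II-high members. Lyz2 averaged 15958 CPM ± 3787 in MHC class II-high and 26981 CPM ± 2311 in MHC class II-low members, and S100a4 718 CPM ± 111 and 1428 CPM ± 248 (SD, n = 4 libraries each). Hp averaged 120 CPM and 697 CPM, Slpi 14.3 CPM and 265 CPM, and Nr4a1 15.4 CPM and 129 CPM. Ccr2 averaged 796 CPM ± 185 and 872 CPM ± 149, but it is a gene of the rule and nothing is read from this. Of 21 macrophage differentiation genes with at least 20 CPM, 3 were higher in MHC class II-high members in all 4 libraries and 3 were lower. The higher ones were Cd9 and the complement genes C1qa and C1qb, made by macrophages, and the lower ones Lgals3, Trem2 and Fabp5. C1qb had 755 CPM in MHC class II-high and 335 CPM in MHC class II-low members.

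The class II genes share promoter elements, and a stretch before the start of H2-Aa and H2-Eb1 is shown for that reason. Capitals mark the core of the Y box, CTGATTGG, which textbooks describe in class II promoters. It was searched on both strands of the 250 bases before each RefSeq start (GRCm38.p6) and found in 3.83% of 32851 such windows. The H2-Aa stretch is chr17:34287824-34287923 on the minus strand, with the match 51 to 44 bases before the start, and the H2-Eb1 stretch is chr17:34305765-34305864 on the plus strand, with the match 62 to 55 bases before it. Of the 10 genes on the class II list, 6 had an entry, and these were the 2 with a match.
H2-Aa: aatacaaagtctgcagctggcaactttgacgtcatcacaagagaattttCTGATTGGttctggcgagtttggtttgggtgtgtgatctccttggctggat
H2-Eb1: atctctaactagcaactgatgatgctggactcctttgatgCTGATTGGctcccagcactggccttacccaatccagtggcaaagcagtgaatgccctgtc

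**Figure D3:**
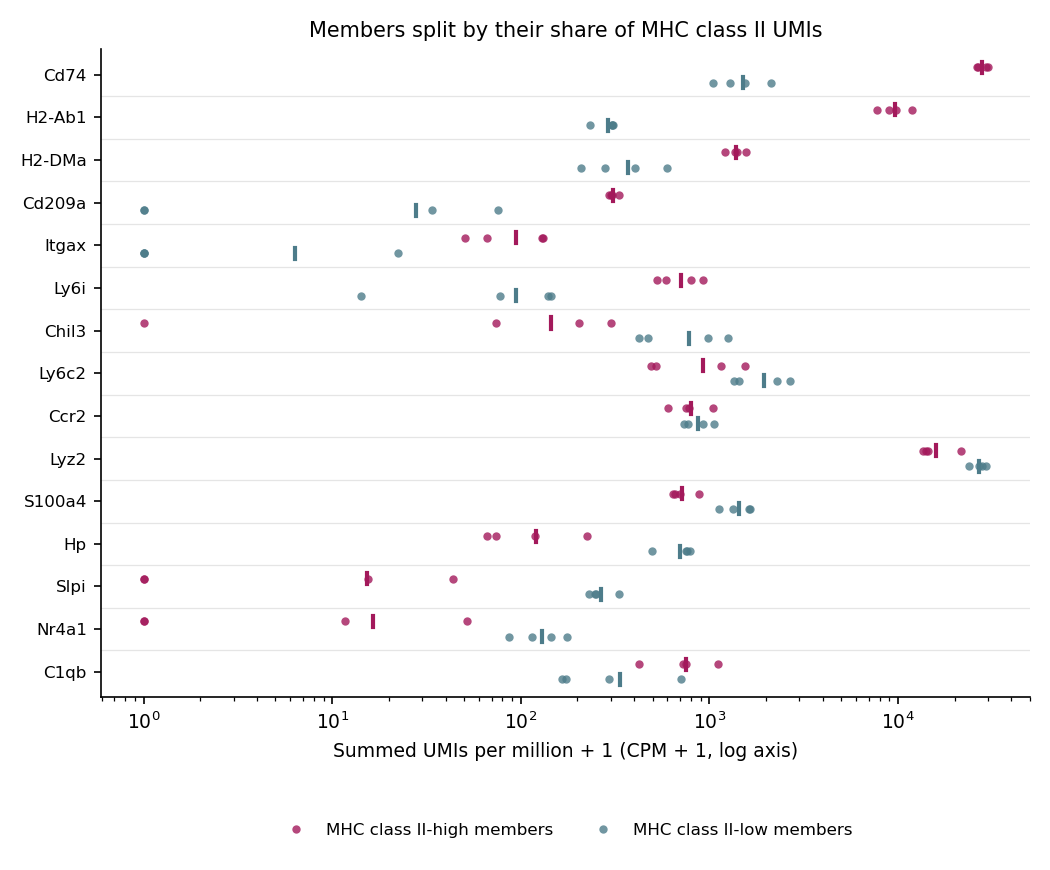
Summed UMIs as CPM plus 1 (log axis) in MHC class II-high members (purple-red, upper rows) and MHC class II-low members (blue-grey, lower rows) of the 4 libraries, with points for libraries and ticks for their mean. Cd209a and Ly6i lie higher and Chil3, Hp, Slpi and Nr4a1 lower in MHC class II-high members, and Chil3, Ly6c2 and Ccr2 are genes that chose the members.

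The exercise comparison asked whether members of exercised mice differed from those of sedentary mice. No gene passed edgeR's quasi-likelihood test among 2484 tested (0% called, smallest adjusted p 0.992), with 67 genes at an unadjusted p under 0.05, and DESeq2 called 0 genes with 10 at an unadjusted p under 0.05. The fit included exercise replicate 1 with its 18 members, fewer than the 20 that had been set as a minimum. Without that library edgeR called 26 genes, without exercise replicate 2 it called 10, without sedentary replicate 1 15 and without sedentary replicate 2 29. Each of these fits leaves a lone library in a group, which is assumed to vary like the other group, and takes the spread from all genes together.

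The genes with the smallest p on the higher side included the cathepsin inhibitor Cstb, with 756 and 763 CPM after exercise against 315 and 394 CPM in sedentary mice (log2 change 1.11, SE 0.23, edgeR adjusted p = 0.992, range 0.0111 to 1). Its groups did not overlap. The NF-kB subunit gene Nfkb1 had 315 and 206 CPM after exercise against 89.2 and 119 CPM (1.25), the linker histone gene H1f0 75.6 and 151 CPM against 5.25 and 27 CPM (2.94), and Ctsb 807 and 1719 CPM against 583 and 697 CPM (1.05). The log2 change of Ctsb was 0.32 without exercise replicate 2 and 1.48 without exercise replicate 1. Saa3 had 25.2 and 529 CPM against 36.7 and 54.0 CPM (2.89), so its groups overlapped.

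On the lower side, Junb, an AP-1 transcription factor, had 630 and 464 CPM after exercise against 1039 and 1178 CPM in sedentary mice (log2 change −1.04, SE 0.22, edgeR adjusted p = 0.992, range 0.0071 to 1). Dusp1, a phosphatase that ends stress kinase signalling, had 189 and 335 CPM against 672 and 718 CPM (−1.29). Klf6 had 139 and 132 CPM against 257 and 346 CPM (−1.14), the lysozyme gene Lyz1 12.6 and 18.4 CPM against 84.0 and 70.2 CPM (−2.11), and Pdlim1 37.8 and 27.7 CPM against 168 and 75.6 CPM (−1.97). In these 5 genes both exercise libraries lay below both sedentary libraries. Lyz1 and Lyz2 are near-identical copies, so which of them the Lyz1 UMIs came from is uncertain.

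Non-overlap alone was common. Of 2482 genes, 13.3% had both exercise libraries above and 17.3% both below the sedentary libraries (30.6% in all). Of 20 tested immediate early and heat shock genes, which answer stress and tissue dissociation within minutes, 15 had a negative change and 10 lay wholly below, with a median log2 change of −0.32 against −0.0072 over all genes. Fos had 214 and 560 CPM after exercise against 961 and 848 CPM, and Zfp36, which destabilizes cytokine mRNA, 290 and 394 CPM against 593 and 448 CPM. Jun did not share this order, with 252 and 160 CPM against 131 and 248 CPM. Of 15 macrophage differentiation genes, 14 had a positive change with a median of 0.45, although only 2 lay wholly above. Single cells weighed on other macrophage genes, outside these 15, in exercise replicate 2. Spp1 (osteopontin) and Gpnmb, markers of lipid-associated macrophages, had 338 and 234 CPM there, and 1 cell held 80.4% and 52.6% of all their member UMIs. Of 16 classical monocyte genes, 12 had a negative change (median −0.16) and 5 lay wholly below.

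Of 14 inflammatory genes, 6 had a positive and 8 a negative change, 1 lay wholly above and 3 wholly below, with a median of −0.11. Il1b had 139 and 111 CPM after exercise against 152 and 373 CPM, so its groups did not overlap, whereas Cxcl10 overlapped with 920 and 194 CPM against 163 and 800 CPM. Of 16 interferon-stimulated genes, 11 had a positive and 5 a negative change (median 0.10), and 1 lay wholly above and 3 wholly below. Isg15 was 1 of the 3 and had 113 and 194 CPM against 283 and 346 CPM. Among 10 glycolysis genes, 7 had a positive and 3 a negative change, 1 lay wholly above and 1 wholly below, with a median of 0.091.

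Hepatocyte RNA moved with the groups. The 10 hepatocyte markers summed to 75.6 and 27.7 CPM in members after exercise against 304 and 140 CPM in sedentary mice, none of them at 0 over all 4 libraries, and 3 and 9 members against 32 and 15 had such a UMI. In the members without any hepatocyte UMI, edgeR again called 0 of 1356 genes, with 40 at an unadjusted p under 0.05. Kupffer markers summed to 416 and 357 CPM after exercise against 226 and 292 CPM, and their part in the macrophage genes was not tested.

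**Figure D4:**
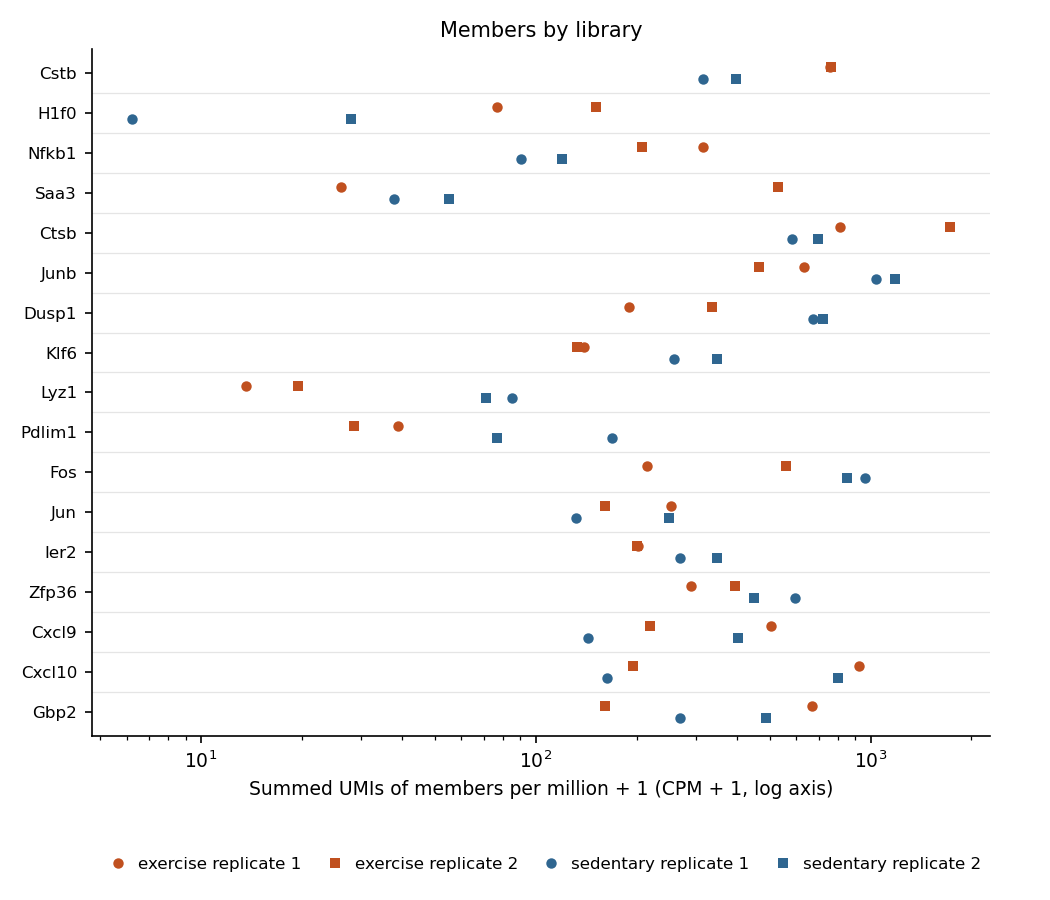
Summed UMIs of members as CPM plus 1 (log axis) by library, exercise in orange above sedentary in blue, circles for replicate 1 and squares for replicate 2. Junb, Dusp1, Klf6, Lyz1 and Pdlim1 are lower in both exercise libraries, and Cxcl9, Cxcl10 and Gbp2 are high in exercise replicate 1 and sedentary replicate 2.

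Whether members responded to exercise unlike Kupffer cells was tested as an interaction with edgeR's quasi-likelihood test. It called 6 of 9561 genes with a higher change in members (0.0628%) and 1 with a lower change (0.0105%), and DESeq2 called 0, while 334 genes in edgeR and 80 in DESeq2 had an unadjusted p under 0.05. As against Kupffer cells, edgeR drew the spread from all genes together, so its adjusted p-values and SEs here do not measure the spread of a single gene. Without exercise replicate 2 edgeR called 0 genes (327 at an unadjusted p under 0.05). Of the 7 genes, Hp alone was still called without exercise replicate 1 (8 calls in all) and without sedentary replicate 1 (3 calls). Without sedentary replicate 2, Hp, Tmsb10 and Acp5 were still called (4 calls). Cstb, given above for members, had 246 and 306 CPM in Kupffer cells after exercise against 284 and 313 CPM in sedentary ones, and its log2 change was 1.18 higher in members (SE 0.26, edgeR adjusted p = 0.0143, range 0.0117 to 1). Tmsb10, an actin-binding thymosin, had 5142 and 5858 CPM in members after exercise against 6614 and 7979 CPM in sedentary members, and 482 and 420 CPM against 182 and 356 CPM in Kupffer cells. The difference in change, members minus Kupffer cells, was −1.25 in log2 (SE 0.20, edgeR adjusted p = 3.54e-06, range 6.2e-07 to 1). The change of Hp was 2.52 higher in members. Its Kupffer level was 4.91 and 4.74 CPM after exercise against 58.1 and 22.5 CPM, while members had 328 and 461 CPM against 667 and 438 CPM. Hp is also a hepatocyte transcript, and the part of hepatocyte RNA in this difference was not tested.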

How the data were processed

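The authors deposited raw UMI counts for each of 27998 genes and each barcode of 4 libraries. Cell Ranger, Seurat 3.1 and the build mm10 (GRCm38) are named in the submitters' processing notes. Cells were released with collagenase and enriched with CD45 magnetic beads before droplet capture, per the labels' protocols. The series text instead speaks of flow sorting and of nuclei, and which of these applies was not settled here, so the counts may hold nuclear RNA to an unknown degree. The series text names STAR and a pre-mRNA genome, so intronic reads may be counted, while strand use, cell calling and the Cell Ranger version are not given in the sources used here. Kept barcodes had 500 or more UMIs, 200 or more genes and no more than 20% of UMIs from mitochondria.

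UMIs were summed per library and cell type, because cells are not replicates, and tested with edgeR 4.0.16 (R 4.3.3, TMM scaling, filterByExpr, quasi-likelihood F-test, Benjamini-Hochberg adjustment at 0.05 over all genes tested), with DESeq2 1.42.0 as an alternative. Printed SEs are the absolute log2 change divided by the square root of the F statistic. The test was checked on simulated data. Doublets were scored against 2 simulated doublets per cell and marked at 0.8% per 1000 cells. Members and gene lists were chosen with earlier results of these data known. Named genes are those called at 100 CPM or more with the largest changes in all 4 libraries (up to 10 a direction), in the exercise comparison the 5 smallest p a direction, and up to 4 list members by level. Other list members, Acp5 and the genes behind counts of 5 or fewer were named after their values were seen. All 360 genes looked up had GENCODE coordinates on GRCm38. The labels do not say whether equal replicate numbers pair the libraries. The comparison with cDC2 (12 to 24 cells per library) and that of members with and without Chil3 (5 to 28 cells with it after thinning) were not run, for too few cells.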

Additional observations from a re-analysis of the deposited data

Results flagged for a closer look

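The exercise effect differed between members and Kupffer cells in edgeR's interaction test for 7 genes, and each is given as the change in members minus that in Kupffer cells on the log2 scale. Hp was at 2.52, Tmsb10 at −1.25, Cstb at 1.18, Ms4a7 at 3.74, H1f0 at 2.73, Acp5 at 1.85 and Cd207 at 9.72. Cd207, the lectin langerin, had 126 and 21.5 CPM in members after exercise, from 2 cells of which 1 held 58.8% of the UMIs, against 0 and 0 CPM in sedentary members, so its fitted value depends on the prior count. Kupffer cells had 227 and 324 CPM of Cd207 after exercise against 289 and 267 CPM. Ms4a7, a macrophage membrane gene, had 37.8 and 114 CPM in members after exercise against 0 and 10.8 CPM, with 52.4% of its UMIs in 1 cell. H1f0 had 75.6 and 151 CPM in members after exercise against 5.25 and 27 CPM, with 31.1% of its UMIs in 1 cell. Acp5, a phosphatase of macrophages and osteoclasts, had 0 and 181 CPM in members after exercise against 15.7 and 59.4 CPM, so its groups overlapped. In all 7 genes the call was lost without exercise replicate 2 and with DESeq2. The causes were not tested.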

How the results depend on the processing

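No gene was called in the exercise comparison in edgeR's main fit, with RLE size factors, 4 monocyte genes, stricter limits on UMIs or mitochondrial share, doublets removed, no hepatocyte UMI, MHC class II-low members only, or the replicate number as a block (0 genes, 62 at an unadjusted p under 0.05), nor by DESeq2. Without a filter on low counts 16 were called (12 higher, 4 lower). In members without a Kupffer gene 3 were higher (Cd209a, H2-Eb1 and Cd74, with 4 cells in exercise replicate 1). Ccl24 alone was lower with markers counted after thinning (1 call) and without members with LSEC or dendritic cell markers (1 call). Leaving out a library gave 10 to 29 calls. Against Kupffer cells 1188 genes were called in members without a Kupffer gene, where H2-Ab1 (−0.26), H2-Aa (−0.23), H2-Eb1 (−0.26) and Fcgr3 (−0.053) turned. H2-Ab1 (−0.053), H2-Aa (−0.050) and H2-Eb1 (−0.044) also turned without the members with LSEC or dendritic cell markers. The cause was not tested. Against patrolling monocytes 97 genes were called by DESeq2, 351 without a filter and 102 to 182 without a library. The interaction gave 0 calls with DESeq2 and 0 to 8 without a library. The share of members differed by −0.61 to 0.31 percentage points without a library. Over 2 pairs, the deviations of libraries with equal replicate numbers had a correlation of −0.018. From sums of so few cells, this value cannot tell whether the libraries were paired. The values cover 180 cells, and genes under about 20 CPM rest on few UMIs. In exercise replicate 1 higher levels do so too, since 1 UMI there equals 12.6 CPM and 6 UMIs equal 75.6 CPM.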
